A study of Mus musculus with 2 samples.

Results

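The 35 genes described here encode the machinery of mitosis, the stage at which a cell separates its copied chromosomes and divides. They were taken by symbol from the 27998 genes of the deposited gene lists, and all 35 were found there. The rule that names them uses no measured value, but the list was chosen with earlier results of these data known. Counts of members below are therefore descriptions. They were read in 2 droplet single-cell libraries of sorted cells, 1 from lymph node of unchallenged mice and 1 from B16 tumours, a transplanted melanoma, at day 14. All mice were Foxp3Cre-YFP on the C57BL/6 strain and 5 to 8 weeks old, so both groups carry the same allele, in which the locus of Foxp3, the lineage factor of regulatory T (Treg) cells, drives Cre recombinase and a yellow fluorescent protein. The labels do not name the sorting gate or the number of mice per library. Each group is a single library, so nothing checks a difference against replicates: the tissues were not tested against each other, no p-value is given, and every interval below is a 95% interval that covers counting error only.

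Entry into mitosis is driven by the kinase Cdk1 bound to A-type and B-type cyclins. Aurora and Polo kinases then build the spindle, kinetochores attach chromosomes to it, and the spindle checkpoint holds back the anaphase-promoting complex until the attachments are complete. Most of these genes are transcribed from late S phase on and are silent in resting cells, which makes their transcripts a common readout of dividing T cells.

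Many members share promoter letters, shown here because the members were also higher together in 1 tissue. RefSeq promoter windows (GRCm38.p6, 250 bases before to 50 after the annotated start) matched 31 members, while Kif20a, Aurkb, Ccna2 and Tpx2 had no entry. For Cdca3, Cdca8 and Kif2c, each with a CHR match, the whole window lay inside the gene as GENCODE places it. The windows were searched on both strands for the cell cycle genes homology region (CHR, TTTGAA or TTCGAA), known as a contact of the MuvB complex, and for the CCAAT box, known as the site of NF-Y. A CHR match was found in 24 of 31 member windows (77.4%), against 21.7% of all 27025 genes with a window. A CCAAT match was found in 26 of 31 (83.9%), against 41.1% of all genes. Both stood in 23 of 31 (74.2%), against 9.65%. Among the other lists, CHR letters were in 33 of 43 windows of other mitotic genes (76.7%) and in 4 of 27 windows of DNA replication genes (14.8%). The 4 E2F-type motifs searched (TTTGGCGC, TTTCCCGC, TTTGCCGC and TTTCGCGC, both strands) matched 1 member window of 31 (3.23%), that of Cdk1, against 2.61% of all genes and 12 of 27 windows of DNA replication genes (44.4%). Matches are descriptions of these windows and not evidence of binding.

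The stretches below run 5′ to 3′ on the gene's strand and end at or before the gene start. Capitals mark CHR and CCAAT letters on either strand, so that TTCAAA and ATTGG are matches on the other strand. Cdk1, Cdc20, Kif11 and Top2a show both motifs. The Mki67 stretch shows a pair of CHR matches, and the 3 CCAAT matches of its window lie upstream of the printed bases. Nusap1 shows neither motif in its stretch or in its whole window.
Cdk1 (chr10:69352939-69353032, minus strand): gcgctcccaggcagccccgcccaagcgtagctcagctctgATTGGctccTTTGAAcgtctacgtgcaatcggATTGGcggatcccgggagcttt
Cdc20 (chr4:118437353-118437463, minus strand): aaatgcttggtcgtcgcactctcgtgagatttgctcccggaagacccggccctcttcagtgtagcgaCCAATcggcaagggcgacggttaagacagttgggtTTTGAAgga
Kif11 (chr19:37376262-37376381, plus strand): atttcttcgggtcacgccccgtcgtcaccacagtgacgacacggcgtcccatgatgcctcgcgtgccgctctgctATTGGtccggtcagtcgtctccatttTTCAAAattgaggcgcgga
Top2a (chr11:99024190-99024309, minus strand): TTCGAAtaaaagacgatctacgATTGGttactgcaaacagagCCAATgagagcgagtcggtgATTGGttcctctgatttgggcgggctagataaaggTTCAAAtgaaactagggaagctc
Mki67 (chr7:135716380-135716499, minus strand): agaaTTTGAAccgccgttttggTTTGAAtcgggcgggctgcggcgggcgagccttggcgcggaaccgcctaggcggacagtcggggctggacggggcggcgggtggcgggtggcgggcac
Nusap1 (chr2:119618178-119618297, plus strand): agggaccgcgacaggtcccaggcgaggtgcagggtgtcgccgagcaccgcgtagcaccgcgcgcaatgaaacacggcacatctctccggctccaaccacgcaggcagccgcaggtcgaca

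A cell was a barcode with at least 1811 UMIs (unique molecular identifiers, 1 per captured transcript) in lymph node or 3834 in tumour, no fewer than 200 genes and no more than 10% mitochondrial UMIs, after barcodes with melanoma, macrophage or B cell transcripts were left out. This kept 2202 lymph node and 1457 tumour cells with 10681101 and 16669263 UMIs. The tumour cells were deeper, with a median of 8766 UMIs against 4100, and 1 barcode sequence occurred in both libraries. A T cell transcript was found at equal depth in 99.3% of cells from lymph node and 99.5% of those from tumour. Cd3d was found in 83.0% and 88.3%, the Treg gene Ikzf2 in 55.7% and 82.6%, and Foxp3 itself in 4.63% and 3.64%. Summed markers of the other cell types reached at most 17.7 CPM (counts scaled to 1e6 cell UMIs) in lymph node, for B cells, and 32.9 CPM in tumour, for melanoma. Some melanoma, macrophage and B cell markers were also used to leave barcodes out, so low sums for these types partly follow from that rule. Both endothelial markers (Cdh5 and Kdr) had no UMI in either library. Of the CD8 T cell markers, Cd8a had none, while Cd8b1 had 188 UMIs (lymph node) and 325 UMIs (tumour). Of the 3 NK cell markers, Ncr1 had none in either library, and Klrb1c and Eomes had 1 and 3 UMIs in lymph node and 0 in tumour.

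All mitosis genes were higher in tumour than in lymph node cells, by 2.38-fold to 6.46-fold. Their summed level was 779 CPM in lymph node and 3234 CPM in tumour, from 8318 and 53913 UMIs, a ratio of 4.15 (4.06 to 4.25). Each of the 35 had at least 50 UMIs over both libraries, and 35 of 35 were at least 2-fold higher in tumour, where 13.2% of the 9976 genes with that many UMIs were. None was 2-fold lower, against 7.7% of genes. For 34 of 35 the whole interval lay above 2-fold, against 8.8% of genes. The median log2 ratio was 2.09 over the members and 0.14 over all genes. The member ratios ran from 1.25 on the log2 scale for Kif20a to 2.69 for Bub1. Sums weigh deep cells more: with equal weight per cell the median log2 ratio was 2.86, and leaving out the deepest 5% of cells in each library it was 4.27.

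**Figure D1:**
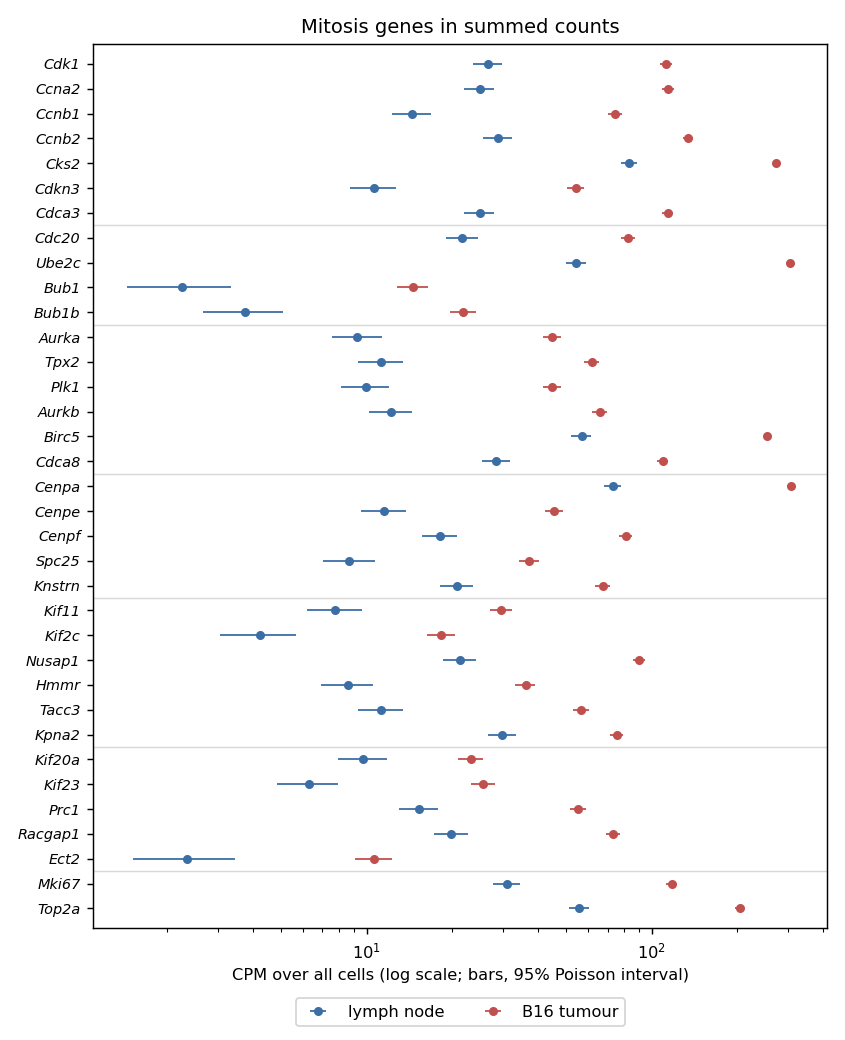
Level of each mitosis gene over all cells of a library, in CPM on a log axis, with lymph node in blue, tumour in red and grey lines between role groups. Points are the library sums and bars the 95% Poisson interval. Every tumour point lies to the right of its lymph node point, from Kif20a at 9.74 and 23.2 CPM to Bub1 at 2.25 and 14.5 CPM.

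The cyclin and CDK genes that drive entry into mitosis were 3.27-fold to 5.17-fold higher in tumour. Cks2, which encodes a small CDK-binding subunit (mm10 chr13:51645232-51650660, plus strand), had the most UMIs of the 7, with 892 in lymph node and 4556 in tumour. That is 83.5 CPM (78.1 to 89.2) and 273 CPM (265 to 281), a ratio of 3.27 (3.05 to 3.52). Ccnb1, cyclin B1 (chr13:100778650-100786570, minus strand), had 154 and 1242 UMIs, or 14.4 CPM (12.2 to 16.9) and 74.5 CPM (70.4 to 78.8). Its ratio of 5.17 (4.37 to 6.15) was the largest of the group by the bound nearest 1. The kinase gene Cdk1 went from 26.7 CPM in lymph node to 112 CPM in tumour, a ratio of 4.21 (3.72 to 4.79). Ccna2 (cyclin A2), Ccnb2 (cyclin B2) and Cdca3, a trigger of mitotic entry, lay close together at 4.58, 4.66 and 4.57. Cdkn3, a phosphatase that acts on CDKs, had a ratio of 5.11 (4.20 to 6.28). The intervals of these 5 overlap each other, while that of Cks2 lies below all of them.

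Genes of the anaphase-promoting complex and of the spindle checkpoint held the 3 largest ratios of all members. Ube2c, the E2 ubiquitin-conjugating enzyme of the complex (chr2:164769898-164778822, plus strand), had 581 and 5087 UMIs, or 54.4 CPM (50.1 to 59.0) and 305 CPM (297 to 314). Its ratio was 5.61 (5.15 to 6.12), and at equal depth it was found in 1.63% of lymph node cells (1.15 to 2.26) and 18.7% of tumour cells (16.7 to 20.8). Cdc20, the activator of the complex, went from 21.6 to 82.7 CPM, a ratio of 3.82 (3.32 to 4.41). The checkpoint kinase gene Bub1 had the highest ratio of all 35, 6.46 (4.24 to 10.3), on 24 lymph node UMIs. Its partner Bub1b had 40 lymph node UMIs and a ratio of 5.81 (4.19 to 8.28). The intervals of both checkpoint genes overlap those of most members.

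The mitotic kinases and their partners were 3.83-fold to 5.48-fold higher in tumour. Birc5, survivin, which brings Aurora B to the centromere (chr11:117849251-117855743, plus strand), had 606 and 4244 UMIs, or 56.7 CPM (52.3 to 61.4) and 255 CPM (247 to 262), a ratio of 4.49 (4.12 to 4.89). Tpx2, the activator of Aurora A on the spindle (chr2:152847964-152895321, plus strand), had 120 and 1027 UMIs, or 11.2 CPM (9.31 to 13.4) and 61.6 CPM (57.9 to 65.5). Its ratio was 5.48 (4.54 to 6.68), the largest of the group by the bound nearest 1. The kinase genes Aurka, Aurkb and Plk1 had ratios of 4.82, 5.40 and 4.50. Cdca8, borealin, a subunit of the same complex as Birc5 and Aurkb, had the lowest ratio of the 6, 3.83 (3.39 to 4.34).

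Centromere and kinetochore genes were 3.26-fold to 4.49-fold higher. Cenpa, the histone H3 variant that marks centromeres (chr5:30666777-30674830, plus strand), had 779 and 5123 UMIs, or 72.9 CPM (67.9 to 78.2) and 307 CPM (299 to 316), a ratio of 4.21 (3.91 to 4.55). It was the member found in most cells at equal depth, 7.90% of lymph node (6.81 to 9.11) and 29.4% of tumour cells (27.0 to 31.8). Cenpe, a kinetochore motor, had a ratio of 3.95, Cenpf, a kinetochore protein, of 4.49, and Spc25, a subunit of the NDC80 complex, of 4.26. Knstrn, which acts at kinetochores and spindle, was lowest of the 5 at 3.26 (2.82 to 3.78).

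Spindle motors and microtubule proteins were 2.52-fold to 5.03-fold higher. Nusap1, a protein that bundles spindle microtubules (chr2:119618298-119651244, plus strand), had 227 and 1505 UMIs, or 21.3 CPM (18.6 to 24.2) and 90.3 CPM (85.8 to 95), a ratio of 4.25 (3.69 to 4.91). Tacc3, which stabilises spindle fibres (chr5:33658128-33678995, plus strand), had 120 and 942 UMIs, or 11.2 CPM (9.31 to 13.4) and 56.5 CPM (53.0 to 60.2), a ratio of 5.03 (4.16 to 6.13). Kpna2, an importin that also serves nuclear import outside mitosis, had the lowest ratio of the group, 2.52 (2.23 to 2.86), from 29.9 and 75.3 CPM. The motor genes Kif11 and Kif2c had ratios of 3.81 and 4.34, and Hmmr, a spindle protein, of 4.19.

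Genes of the central spindle and of cytokinesis, which part the daughter cells, were 2.38-fold to 4.54-fold higher. Racgap1, a subunit of centralspindlin (chr15:99620496-99651656, minus strand), had 211 and 1220 UMIs, or 19.8 CPM (17.2 to 22.6) and 73.2 CPM (69.1 to 77.4), a ratio of 3.70 (3.20 to 4.31). Its motor partner Kif23 had a ratio of 4.07 (3.14 to 5.35) and the microtubule bundler Prc1 one of 3.62 (3.06 to 4.30). Ect2, the exchange factor that Racgap1 recruits, had 25 and 177 UMIs and a ratio of 4.54 (2.97 to 7.20). The motor gene Kif20a was the exception among the members, at 2.38 (1.91 to 2.98), the interval that reached below 2-fold. At equal depth it was found in 0.863% of lymph node cells (0.52 to 1.34) and 1.78% of tumour cells (1.17 to 2.60). These intervals overlap.

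The chromosome proteins closed the list with close ratios. Top2a, topoisomerase II alpha, which untangles sister chromatids (chr11:98992943-99024189, minus strand), had 595 and 3389 UMIs, or 55.7 CPM (51.3 to 60.4) and 203 CPM (197 to 210.3), a ratio of 3.65 (3.34 to 3.99). Mki67, the Ki-67 protein that coats mitotic chromosomes (chr7:135689784-135716361, minus strand), had 332 and 1959 UMIs, or 31.1 CPM (27.8 to 34.6) and 118 CPM (112 to 123), a ratio of 3.78 (3.36 to 4.26). At equal depth Mki67 was found in 1.50% of lymph node cells (1.03 to 2.10) and 10.8% of tumour cells (9.29 to 12.6).

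To ask how many cells carried the programme, each cell was thinned at random to 1811 UMIs and counted as positive with a UMI of at least 3 different mitosis genes. In lymph node 64 of 2202 cells were positive, or 2.91% (2.25 to 3.70), and in tumour 420 of 1457, or 28.8% (26.5 to 31.2). The share was 9.92-fold higher in tumour (7.61 to 13.1). With a stricter rule of 10 or more genes, it was 1.32% (0.884 to 1.89) and 10.5% (8.97 to 12.2), a fold of 7.97 (5.33 to 12.3). Without thinning it was 6.86% and 64.9%. Near the limit of 3 lay 62 lymph node and 176 tumour cells with exactly 2 genes, and 14 and 78 with exactly 3. No mitosis gene was found at equal depth in 75.3% of cells from lymph node and 31.4% of those from tumour. A share of positive cells is a range of a count, not a cell type, and is not a share of cells in mitosis.

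**Figure D2:**
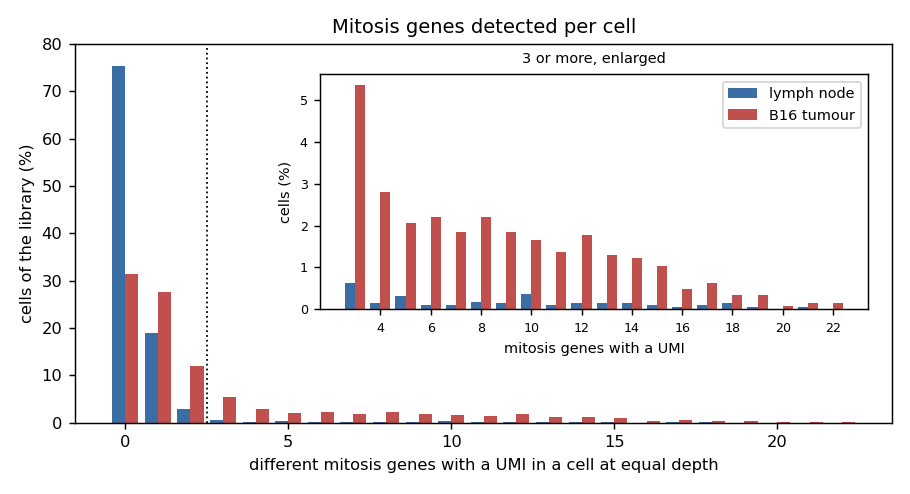
Share of the cells of each library, in percent, by the number of different mitosis genes with a UMI after thinning to 1811 UMIs, with the range from 3 genes enlarged in the inset. The dotted line marks the limit of 3 genes, which 2.91% of lymph node (blue) and 28.8% of tumour cells (red) reach, and the counts run on to 21 and 22 genes.

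Positive cells were deep cells in both tissues. Their median depth was 13654.5 UMIs (lymph node) and 16641.5 UMIs (tumour), against 4039 and 6810 in cells with no mitosis gene. Of the 5% of cells with most UMIs, 43 of 111 in lymph node and 61 of 73 in tumour were positive, which is 67.2% and 14.5% of all positive cells. Without those cells the shares were 1.05% and 25.9%, a fold of 24.7, so the fold depends on the deepest lymph node cells. It was 6.41 with the tumour UMI minimum in both libraries, 6.05 with cells thinned to that minimum, and 4.51 among the cells with a Foxp3 UMI. Whether deep barcodes held more than 1 cell was not tested.

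Within positive cells the mitosis genes were at nearly the same level in both tissues. Their summed level was 6713 CPM in lymph node and 6296 CPM in tumour, a ratio of 0.938 (0.914 to 0.962). The same genes chose these cells, which can bring the levels together, so the ratio is a description. Positive cells held a median of 8.5 different genes in lymph node (quartiles 4 to 12.25) and 8 in tumour (4 to 12). In the remaining cells the summed level was 169 and 643 CPM, a ratio of 3.81 (3.61 to 4.03). Positive cells held 80.4% of the mitosis gene UMIs in lymph node and 89.2% in tumour, with 9.32% and 45.8% of all UMIs. The ratio in positive cells changed direction with the choice of cells: it was 1.24 without the deepest 5%, 1.23 among cells with a Foxp3 UMI and 0.889 with the tumour UMI minimum in both libraries.

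**Figure D3:**
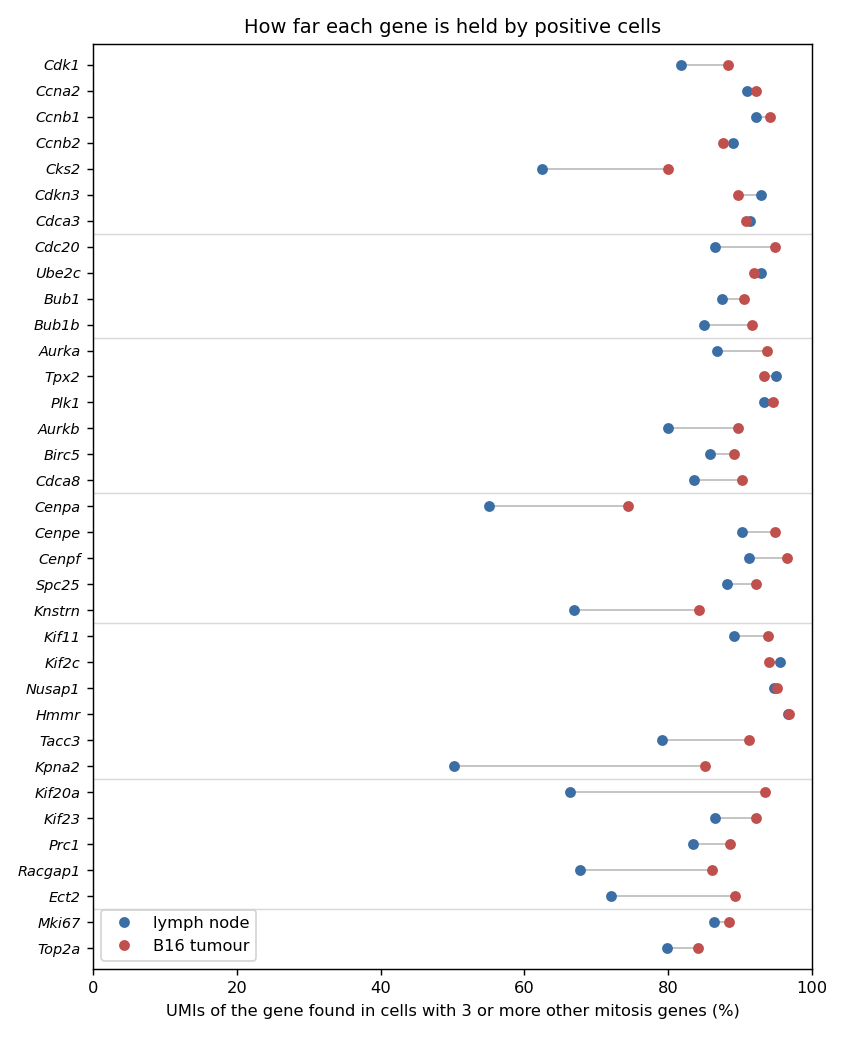
Percent of each mitosis gene's UMIs that lay in cells with 3 or more other mitosis genes at equal depth, lymph node in blue and tumour in red. Most genes lie above 80% in both tissues, while Kpna2, Cenpa and Cks2 lie lowest in lymph node at 50.2%, 55.1% and 62.4%.

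To look at single genes without letting a gene choose its own cells, each gene was read in cells with 3 or more of the other members. There 0 of 35 were 2-fold apart either way, where 7.6% of 7919 genes were 2-fold higher in tumour and 3.16% lower. The median log2 ratio of the members was -0.10. The interval excluded 1 for 8 of 35 members, near the background of 25.6% of genes, so the count says nothing particular about the members, and the 8 are listed as values only. Ube2c stood at 542 and 626 CPM, a ratio of 1.16 (1.06 to 1.27), and Cenpa at 456 and 532 CPM, a ratio of 1.17 (1.06 to 1.29). The other 6 had ratios below 1, with Top2a at 0.756 (0.686 to 0.835), Mki67 at 0.771 (0.68 to 0.877), Kif20a at 0.683 (0.527 to 0.898), Prc1 at 0.782 (0.651 to 0.945), Cdca8 at 0.819 (0.717 to 0.938) and Cks2 at 0.841 (0.769 to 0.921). Intervals of the other 27 held 1. These 8 were picked out by their values and by counting error alone.

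**Figure D4:**
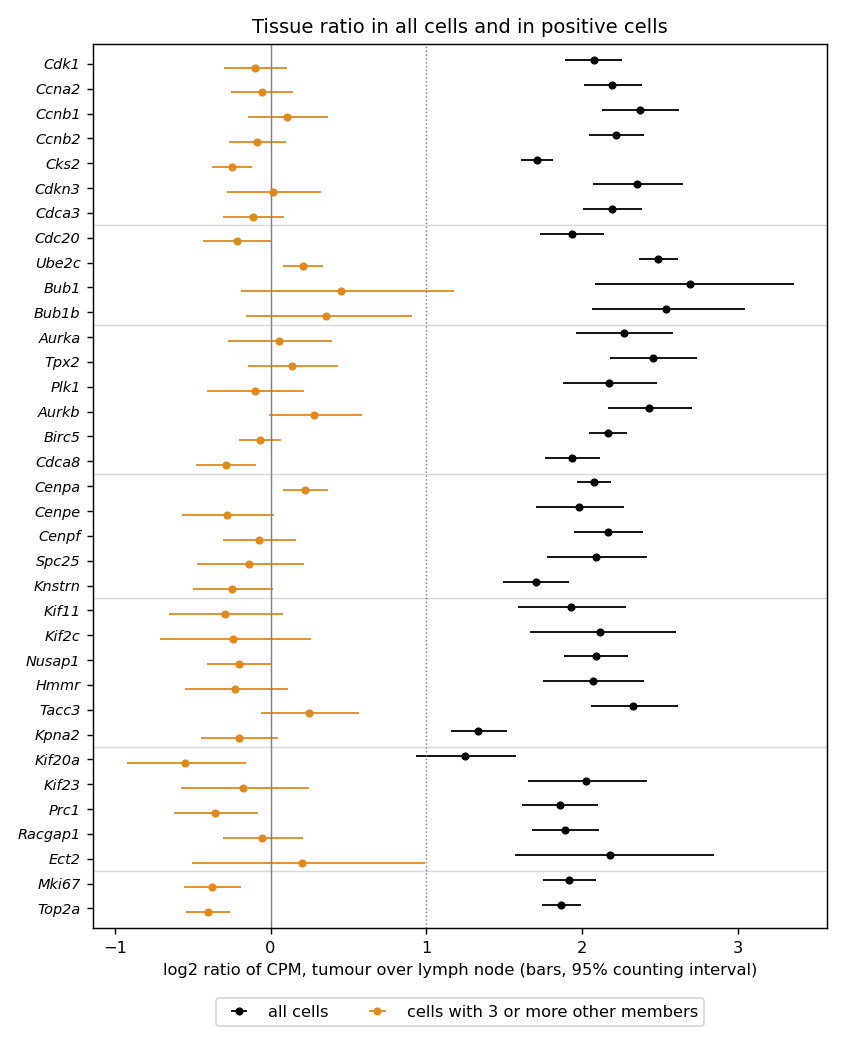
Log2 ratio of each mitosis gene, tumour over lymph node, over all cells and in cells with 3 or more other mitosis genes, with 95% counting intervals. Over all cells every gene lies at or above 1.25 on the log2 scale, and in positive cells the genes lie around 0 with a median of -0.10.

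The genes differed in how much of their transcript lay outside positive cells. Between 50.2% (Kpna2) and 96.7% (Hmmr) of a gene's lymph node UMIs lay in cells with 3 or more other members, and between 74.4% (Cenpa) and 96.8% (Hmmr) in tumour. The share was higher in tumour for 29 of 35 genes. Positive cells also held more of all UMIs in tumour, 45.8% against 9.32% in lymph node. The same count over all genes was not made, so the 29 are not read as a trait of the members. Kpna2 went from 50.2% to 85.2%, Kif20a from 66.3% to 93.5%, Cenpa from 55.1% to 74.4% and Cks2 from 62.4% to 79.9%. Kpna2 and Kif20a had the smallest tissue ratios of the members. Cenpa and Cks2 had ratios of 4.21 and 3.27. Whether a gene's tissue ratio goes with this share was not tested.

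Droplets without a cell carried mitosis transcripts as well. Barcodes of 1 to 100 UMIs held 1304 CPM of the 35 genes in lymph node (1261 to 1348) and 3788 CPM in tumour (3727 to 3849), with all 35 present. The level in cells below the limit of 3 genes was 12.9% and 17.0% of that level, and in positive cells it was 5.15 and 1.66 times that level. In cells with no other member, 23 of 35 genes in lymph node and 24 in tumour stood under 10% of their level in those droplets. The highest were Kpna2 in lymph node at 49.7% and Cenpa in tumour at 34.4%. The members chose all these groups of cells, which by itself sets their levels apart, so the values are a description. The same count over all genes was not made, and the values do not measure how much free RNA the cells hold. Of the barcodes left out, 1 of 9 with B cell transcripts in lymph node, at a median of 3309 UMIs, had 3 or more mitosis genes (11.1%, 0.281 to 48.2). Of the 3 with macrophage transcripts in tumour, 0 had. Melanoma markers stood at 27.9 CPM in positive and 37.2 CPM in other tumour cells, with a UMI at equal depth in 4.05% and 7.14% of them. All 5 melanoma markers were found in tumour cells and 1 of 5 in lymph node cells, while Dct, Mlana, Tyrp1 and Tyr had no lymph node UMI. The part of free RNA in the tissue ratios was not tested.

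DNA replication genes, which act in S phase before mitosis, were higher in tumour too, less evenly. Among 35 of them, 25 were higher in tumour by 2-fold or more, 0 were lower and 10 lay between, with a median log2 ratio of 1.37. The largest by the bound nearest 1 were Tk1, thymidine kinase, at 4.87 (4.22 to 5.64), Chaf1a, a histone chaperone, at 4.27 (3.35 to 5.51), Rrm1, a subunit of ribonucleotide reductase, at 3.76 (3.24 to 4.38), and Dtl, a ubiquitin ligase adaptor, at 3.99 (3.20 to 5.00). Gins1, of the replicative helicase, stood at 0.963 (0.782 to 1.19). Other mitotic genes were nearer to the members: of 57 tested, 51 were higher by 2-fold or more and 0 lower, with a median log2 ratio of 1.74. The condensin gene Ncapg led them at 5.46 (4.19 to 7.22), followed by Fam64a at 5.16, Pbk at 4.97 and Cep55 at 4.98. Smc4, a condensin subunit, ran the other way at 0.588 (0.566 to 0.611), found at equal depth in 56.3% of lymph node cells.

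Most positive cells also held transcripts of 3 or more DNA replication genes. At equal depth, 3 or more of the 35 replication genes were found in 71.9% of positive cells in lymph node (59.2 to 82.4) and 72.1% in tumour (67.6 to 76.4). Over all cells of the library, 10.6% in lymph node and 37.0% in tumour held as many. When 6 or more were required, 45.3% of positive cells in lymph node and 42.6% in tumour held them. Read the other way, 46 of 233 lymph node cells with replication transcripts were positive for mitosis genes, or 19.7% (14.8 to 25.4), against 303 of 539 in tumour, or 56.2% (51.9 to 60.5). With 6 or more replication genes required these shares were 63.0% (47.5 to 76.8) of 46 cells and 69.1% (63.1 to 74.7) of 259. The values of the tissues were thus farther apart at the lower requirement, and the difference between them was not tested. Among all cells, 2.91% in lymph node and 28.8% in tumour were positive.

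Ordered by the number of mitosis genes found in a cell, replication and mitosis transcripts followed different courses. The replication genes summed to 589 CPM in lymph node and 1184 CPM in tumour cells with no mitosis gene, to 5086 and 4137 CPM at 3 to 5 genes, and to 3820 and 2993 CPM at 10 or more. Pcna, the sliding clamp of DNA polymerases, followed that course, at 368 and 257 CPM with 3 to 5 genes and 193 and 145 CPM with 10 or more. Ccnb1 and Cdc20 were highest in the last range. Ccnb1 stood at 33.7 and 38.6 CPM with 3 to 5 genes and at 238 and 262 CPM with 10 or more. Cdc20 stood at 33.7 and 47.9 CPM, then at 346 and 299 CPM. The ranges of 3 to 5 and 6 to 9 genes held 24 and 11 lymph node cells. The members define the order of cells, so the course of Ccnb1 and Cdc20 is a description.

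**Figure D5:**
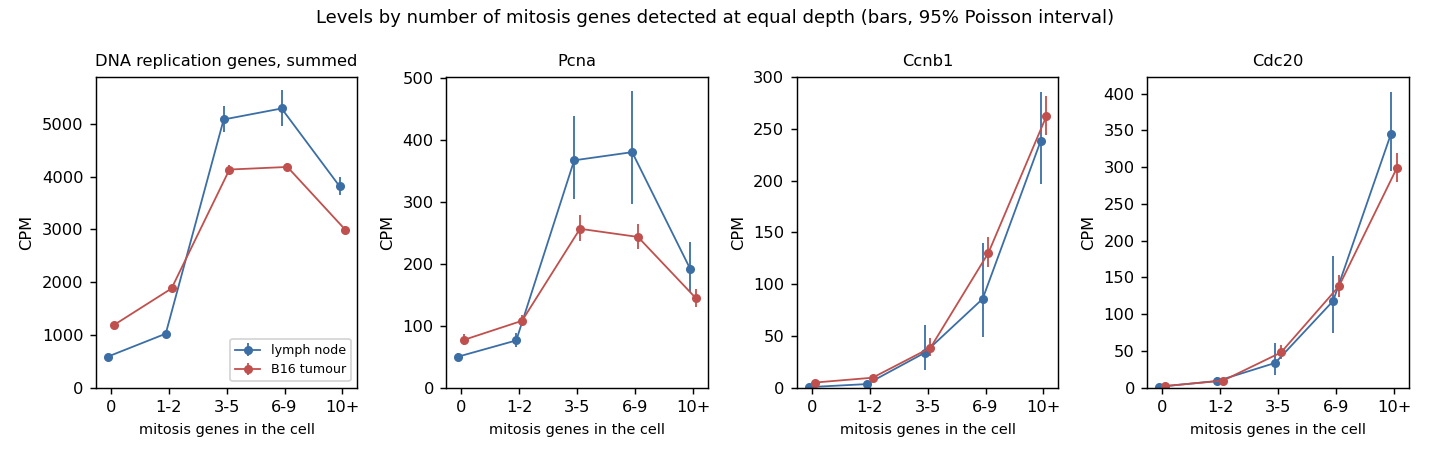
Summed DNA replication genes, Pcna, Ccnb1 and Cdc20 in CPM by the number of different mitosis genes found in a cell at equal depth, lymph node in blue and tumour in red, with 95% Poisson intervals. Replication genes and Pcna are highest at 3 to 9 mitosis genes and lower at 10 or more, where Ccnb1 and Cdc20 reach 238 to 346 CPM.

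Treg transcripts were present in positive cells of both tissues. At equal depth Ikzf2 was found in 70.3% of positive and 55.2% of other cells in lymph node, and in 77.4% and 84.7% in tumour. Ctla4, an inhibitory receptor, was found in 32.8% and 14.9% in lymph node, and in 56.9% and 59.7% in tumour. Foxp3 was found in 3.12% and 4.68% in lymph node, and in 3.57% and 3.66% in tumour. At full depth its level was 12.05 CPM in positive and 22.9 CPM in other cells of lymph node, and 12.0 and 21.5 CPM in tumour. In tumour it was 23.4 CPM (18.7 to 28.9) with no mitosis gene and 12.1 CPM (8.40 to 16.8) with 10 or more. In lymph node the Foxp3 level was 22.9 CPM (19.6 to 26.6) with no mitosis gene. With 10 or more it was 8.28 CPM (2.26 to 21.2), on 4 UMIs, so the lymph node level in positive cells is uncertain. The remaining Treg markers were lower in positive than in other cells of both tissues at full depth. Tnfrsf18 stood at 242 and 334 CPM in lymph node and at 855 and 1455 CPM in tumour. Il2ra stood at 110 and 161 CPM, then at 131 and 165 CPM. Ikzf4 stood at 64.3 and 86.2 CPM, then at 47.6 and 57.9 CPM, though at equal depth it was found in 20.3% and 13.3% in lymph node. The 6 Treg markers summed to 1451 CPM in positive and 1414 CPM in other cells of lymph node, and to 2456 and 3664 CPM in tumour.

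Among regulators of mitotic transcription and of cell cycle entry, 14 of 33 tested were at least 2-fold higher in tumour, 1 was lower and 18 lay between, with a median log2 ratio of 0.86. Foxm1, the transcription factor of late cell cycle genes, stood at 5.21 (3.40 to 8.32), Mybl2, the B-MYB partner of MuvB, at 3.47 (2.61 to 4.69) and Ccne1, cyclin E1, at 3.28 (2.56 to 4.24). The CDK inhibitor gene Cdkn1a had the largest ratio, from 16 UMIs in lymph node to 1528 in tumour, 61.2 (37.6 to 107). In tumour it was at 107 CPM in cells with no mitosis gene and 98.6 CPM in cells with 10 or more. The antiproliferative gene Btg2 was lower in tumour, at 0.479 (0.447 to 0.514).

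Set against tumour cells with no mitosis gene, positive tumour cells held more of further cell division genes. The comparison uses the cells that the members chose, so its values are a description. Over 8468 genes, 8.42% were at least 2-fold higher in positive cells and 4.09% lower. The leading gene outside the list, by the bound nearest 1, was the histone gene Hist1h2ap, at 23.1 and 1044 CPM, a ratio of 45.1 (36.4 to 56.6). It has near-identical copies, so its count is uncertain. Prr11 had 0 UMIs in cells with no mitosis gene and 188 in positive cells, at least 29.8-fold higher when the empty group is given 3 counts. Nek2, Ckap2l, Neil3, Cit, Ckap2, Nuf2, Sgol1 and Aspm followed, of which Neil3, a DNA repair enzyme, is the one on no list of mitotic genes. In lymph node all 10 were higher in positive cells as well, Hist1h2ap by 193-fold (160 to 236). There 11.2% of 7849 genes were at least 2-fold higher. The members chose the lymph node cells too, so this is not an independent check.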

How the data were processed

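The authors deposited raw UMI counts, 1 matrix a library with 27998 genes and all 737280 barcodes, from the 10x Chromium 3′ protocol per the labels' protocols. Cell Ranger and mm10 were used per the submitters' processing notes; version and annotation: not given in the sources used here. Matrix totals were 14000036 UMIs (lymph node) and 23618037 UMIs (tumour), of which cells held 76.3% and 70.6%.

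To set a library's UMI minimum, its 3000 largest barcodes were taken and 10% of their 99th percentile was used. Of 2226 and 1489 barcodes that reached it, 13 and 14 had over 10% mitochondrial UMIs. Barcodes with 20 or more UMIs of Pmel, Dct and Mlana (0 and 15), 3 or more of C1qa, C1qb and Lyz2 (2 and 3) or 2 or more of Cd79a and Ms4a1 (9 and 0) were then left out. Doublets were kept and no caller was run. Since transcripts are read at the 3′ end, levels were compared between tissues and not between genes.

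Counts were summed over cells and scaled to CPM. Ratios carry the exact conditional-binomial 95% interval, sums the exact Poisson and shares the Clopper-Pearson interval, and all treat UMIs or cells as independent. Counts of genes 2-fold apart were made over genes that reached 50 UMIs in the libraries combined. For shares, cells were thinned to 1811 UMIs with a fixed seed. In the comparison of positive cells a gene was not used to choose its own cells. Gene positions come from GENCODE M21 on GRCm38, with all 35 members matched by identifier. The steps were tested on simulated data. Python 3.11.15, numpy 2.4.6, scipy 1.17.1, pandas 2.3.3, matplotlib 3.10.9 and R 4.3.3 were used, with edgeR 4.0.16 for TMM scaling as an alternative.

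The members and lists were chosen with earlier results of these data known. Every member is named. Fuller values are given for the member with most UMIs and the member with the largest ratio, by the interval bound nearest 1, of each of 7 role groups, for up to 4 genes of each other list, and for 10 genes outside the members between positive tumour cells and those with none. Kif20a, Kpna2, Smc4, Gins1, Btg2, Pcna and the members outside these rules were described after their values were seen.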

Additional observations from a re-analysis of the deposited data

Results flagged for a closer look

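Mitosis transcripts were also present in barcodes that the comparisons did not use. The summed level of the 35 genes was 3788 CPM (3727 to 3849) in tumour barcodes of 1 to 100 UMIs, above the 3234 CPM of all tumour cells, while in lymph node it was 1304 CPM (1261 to 1348). It was 2710 CPM (2619 to 2803) in the 15 tumour barcodes left out for melanoma transcripts, which had a median of 70488 UMIs, and 8 of these 15 held 3 or more mitosis genes at equal depth (53.3%, 26.6 to 78.7). Both were singled out as signal in data outside the main measurement. Their part in the tissue ratios was not tested.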

How the results depend on the processing

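No alternative reversed a member: all 35 were higher in tumour under each setting run, and 34 or 35 were at least 2-fold higher, except among cells with a Foxp3 UMI, where 31 of the 33 members with at least 50 UMIs were. Kif20a was lowest, at a log2 ratio of 0.82 among cells with a Foxp3 UMI and 0.92 with the tumour UMI minimum in both libraries. With that minimum in both, the median log2 ratio was 1.70, the lymph node share of positive cells 4.50%, the fold of the share 6.41 and the ratio in positive cells 0.889. With the lymph node minimum in both the tumour share was 24.4%. Without cells with a UMI of Pmel, Dct or Mlana it was 24.9%, with a ratio in positive cells of 0.967. Without the 5% of cells with most UMIs the median was 4.27, the shares 1.05% and 25.9%, their fold 24.7 and the ratio in positive cells 1.24. Among cells with a Foxp3 UMI (211 and 244) the median was 1.72 over those 33, 8 of 33 replication genes were 2-fold higher, the lymph node share was 6.64%, the fold 4.51 and the ratio 1.23. Equal weight per cell gave a median of 2.86. With 2 or more genes required, the shares were 5.72% and 40.9%, their fold 7.15 and the ratio 1.03, and with 5 or more, 2.13%, 20.7% and a ratio of 0.965. With 10 or more, a choice made after seeing the data, they were 1.32%, 10.5% and 0.964. With 3 or more UMIs of any members the ratio was 0.975. Thinned to the tumour minimum, which left out 979 lymph node cells, the shares were 7.03% and 42.6% and their fold 6.05, and at full depth the shares were 6.86% and 64.9% and the ratio 1.01. TMM scaling moved every log2 ratio by -0.10. Of the main values, 67 stayed close and 35 moved. Of the log2 ratios of single members, 156 stayed inside their interval as reported and 124 moved out of it. The cause was not tested where a setting changed more than the number of cells or genes. No paired analysis was possible because each group has 1 library and the labels give no replicate numbers. Counts of 24 to 40 UMIs for Bub1, Ect2 and Bub1b in lymph node limit their ratios, and 64 positive lymph node cells limit every comparison within positive cells.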
